A study of Xenopus laevis with 27 samples.

Results

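The Sox and forkhead (Fox) transcription factors of Xenopus laevis, the African clawed frog, were followed in whole embryos. These had been injected with constructs known to raise or lower Notch signalling. Members were the probe sets that carried a single gene symbol beginning with sox and a digit, or with fox, 1 letter and a digit. Probe sets for sox10, foxd3, foxi1, foxj1 and foxj1.2 (7 in all) were left out, as were 5 sox or fox probe sets shared by several genes. This gave 73 of the 32635 probe sets on the array, 27 sox and 46 fox, for 54 gene symbols. Xenopus laevis carries 2 related chromosome sets, so many genes have a copy ending in .L and one ending in .S, and the 54 symbols stand for 42 genes once that ending is dropped. Of the symbols, 42 had 1 probe set and 12 had several, with at most 4. No member was filtered out for a low value, and the mean of 40 members lay above the median of all probe sets.

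Sox proteins bind and bend DNA through an HMG box, and forkhead proteins bind it through a winged-helix domain. In the early frog embryo, SoxB1 proteins keep neural cells in a progenitor state, sox17 and the FoxA genes serve the endoderm, SoxE genes the neural crest, and sox7 and sox18 the blood vessels. Forkhead genes mark many regions, among them the visceral mesoderm (foxf1), the paraxial mesoderm (foxc1 and foxc2), the neural plate (foxb1 and foxd4l1.1) and the lens (foxe3).

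Each array held RNA from 10 pooled embryos, injected on 1 side at the 2-cell stage with 1.5 ng of capped RNA. The RNA coded for the Notch intracellular domain (NICD, labelled ICD), which activates the pathway, for DBM, a form of Suppressor of Hairless mutated in its DNA binding, which suppresses the pathway, or for green fluorescent protein (GFP), the control for injection. Embryos were taken at stage 18 (late neurula), 28 (tailbud) and 38 (swimming tadpole), with 3 arrays in each of the 9 groups. The uninjected side was part of every sample, and in whole embryos fewer cells of a type and less RNA per cell cannot be told apart. Nothing in the labels says that the 3 arrays of a group came from separate clutches or separate pools. The p-values therefore measure the spread between these arrays, which may be in part technical. Values are log2 RMA signals, so a difference of 1 is a doubling. Levels of different probe sets were not compared.

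Array medians lay between 6.83 and 6.99, arrays of a group correlated at 0.983 or higher, and no 2 arrays held identical values. As a check of the labels, all 8 probe sets of the Notch targets hes5.1, hes5.2, hey1 and nrarp rose with NICD at stage 18 (median difference 2.42), 4 of 8 rose at stage 28 (median 0.76), and none was called at stage 38 or with DBM. With the block described below, all 8 were higher with NICD at stage 28 and 2 were lower with DBM there. The median difference of DBM from GFP was 0.19 at stage 18, −0.35 at stage 28 and −0.24 at stage 38, so a lowering by DBM was not seen at stage 18. Of the tissue markers, all 11 muscle probe sets, 5 of 6 nervous system probe sets, 3 of 3 lens probe sets and 2 of 3 liver probe sets rose in GFP embryos from stage 18 to 28. At that step 1 of 4 blood probe sets rose and 1 of 3 epidermis probe sets fell. A probe set was called where limma gave an adjusted p under 0.05 over all 32635 probe sets. Arrays of a stage that shared a replicate number deviated together, less distinctly at stage 18 than later. Values with that number as a block are therefore given where they change a call of a member or move a count of members. For the other lists they are given in part.

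In GFP embryos members fell more often than they rose as development went on. From stage 18 to 28, 50 of 73 members changed (51.4% of all probe sets did). Of these, 10 rose, where 22% of all probe sets rose, and 40 fell, where 29.4% fell. The median difference was −0.48 over the members and −0.09 over all probe sets. From stage 28 to 38, 40 members changed (41.2% of all), 15 upward (18.8% of all) and 25 downward (22.4% of all). The fall continued through both steps in 21 members, against 9.89% of all probe sets, and 6 members rose at both steps, against 8.52%. Another 15 members passed the test at neither step. Stage and any batch of arrays of that stage cannot be told apart, and the 9 hybridisation control probe sets also differed by stage. Their mean was between 11.07 and 11.38 in the late neurula, between 10.21 and 10.48 in the tailbud and between 10.62 and 11.46 in the tadpole.

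The endodermal SoxF genes were among those that fell most, and sox17b.1.S fell furthest. The values of sox17b.1.S, an inducer of endoderm, were 10.00, 10.64 and 10.60 at stage 18, 7.35, 6.97 and 7.30 at stage 28 and 5.23, 4.57 and 4.81 at stage 38. The stages did not overlap. This gene fell by 3.21 ± 0.18 (SE, n = 3 arrays a group) and then fell by 2.34 ± 0.18 on the log2 scale, the largest fall of any member at each step (limma-adjusted p = 1.85e-12 and 6.93e-10). The other copy, sox17b.1.L, fell by 2.25 ± 0.13 at the first step and was not called at the second (0.03 ± 0.13). Its mean over all arrays was low, at 4.93, and whether a low signal hid a further fall at the second step was not tested. Both copies of sox17a fell at both steps. Of these, sox17a.L stood at 9.79, 10.25 and 10.14 at stage 18, at 7.40, 7.17 and 7.54 at stage 28 and at 6.55, 6.77 and 6.63 at stage 38, and at the first step it fell by 2.69 ± 0.12. At the second step sox17a.S fell by 1.65 ± 0.12, the third largest fall among the members there. The vessel gene sox18 went the other way, with sox18.L called higher at the first step and sox18.S at the second. Their relative sox7.L was called lower at the second step and not at the first.

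The other deep falls were in genes of the early embryo. For foxh1.L, the Smad partner in Nodal signalling, 1 probe set gave 9.34, 9.10 and 9.02 at stage 18 and 6.20, 6.07 and 6.03 at stage 28, so that it fell by 3.05 ± 0.14. The second foxh1.L probe set was dim and averaged 4.44 at both stages, so the probe sets of this gene disagree. For foxa4, a gene of notochord and floor plate, foxa4.L fell by 2.06 ± 0.21 and then fell by 2.08 ± 0.21. The other copy, foxa4.S, fell by 1.16 ± 0.16 and then fell by 1.35 ± 0.16. The neural plate gene foxd4l1.1.S averaged 8.55, 6.22 and 4.78 at the successive stages, and at the second step it fell by 1.44 ± 0.16. The neural plate gene foxb1.S averaged 9.27, 7.91 and 7.05 and was called at both steps. Of the 5 probe sets of the endoderm genes foxa1 and foxa2, foxa1.S and both of foxa2.L fell at the first step, by between 0.62 and 1.13 on the log2 scale, and 1 of foxa1.L fell at the second. Of the remaining families, at the first step 6 of 7 FoxI, 4 of 4 FoxC, 3 of 3 FoxN, 2 of 2 SoxD and 2 of 3 SoxC probe sets fell, and none of them rose.

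The neural crest gene sox8.L fell and then recovered in part on all 3 of its probe sets. On Xl2.53219.3.A1_at its values were 9.52, 10.03 and 10.05 at stage 18, 6.63, 7.10 and 7.32 at stage 28, and 7.67, 7.61 and 7.83 at stage 38. It fell by 2.85 ± 0.17 and later rose by 0.69 ± 0.17 (limma-adjusted p = 4.89e-12 and 0.00217). The probe set Xl2.53219.3.A1_s_at of sox8.L fell by 2.77 ± 0.15. Its SoxE relative sox9 never fell: sox9.S rose at both steps and sox9.L at the second. Among SoxB1 genes, sox3.L and sox3.S fell at both steps, none of the 3 sox2.L probe sets was called at either, and sox1.S peaked in the tailbud. The values of sox1.S were 8.67, 8.39 and 8.51, then 9.23, 9.98 and 9.64, then 8.64, 8.36 and 8.33, so that it rose by 1.09 ± 0.17 and then fell by 1.17 ± 0.17.

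**Figure D1:**
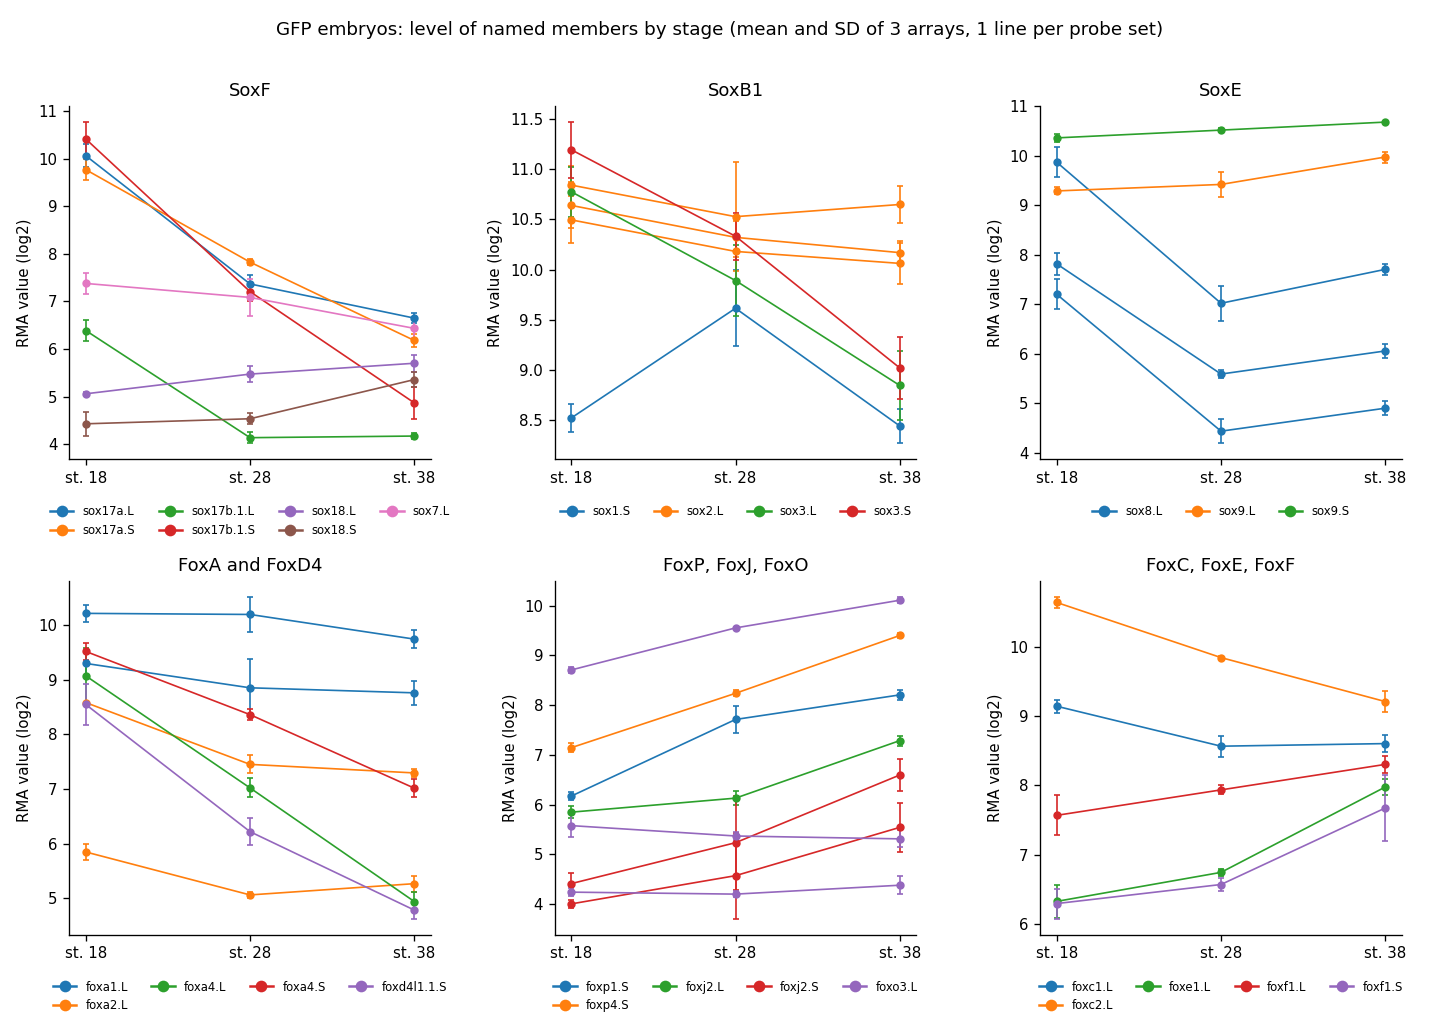
Mean and SD of 3 GFP arrays (y axis, RMA value, log2) at stages 18, 28 and 38 (x axis) for named members in 6 panels, with 1 line per probe set and 1 colour per gene symbol. The sox17a, sox17b.1.S and foxa4 lines fall through all stages, sox17b.1.L levels off after stage 28, sox8.L dips at stage 28, and foxp1.S, foxp4.S and foxe1.L climb.

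The largest rise at the first step was in a FoxP repressor: foxp1.S was at 6.17, 6.24 and 6.10 at stage 18 and at 7.41, 7.82 and 7.90 at stage 28, a rise of 1.54 ± 0.14, and foxp4.S rose by 1.09 ± 0.09 and again by 1.16 ± 0.09. On 1 of its 3 probe sets foxo3.L, an insulin-regulated factor, rose by 0.84 ± 0.09, while the other two were called at neither step. The lens gene foxe3.L rose by 0.52 ± 0.15 to stage 28 and fell by 0.51 ± 0.15 after it. At the second step the rises were led by foxj2.S (1.36 ± 0.42) and foxe1.L, a thyroid and pharynx gene (1.23 ± 0.13), followed by foxp4.S, by foxj2.L (1.16 ± 0.11) and by the visceral mesoderm gene foxf1.S. The foxj2.S value rests on uneven arrays, since at stage 28 its GFP arrays read 4.54, 6.31 and 4.85. The 4 probe sets that carried the name sox15.L disagreed: 1 fell from a mean of 11.27 through 9.22 to 8.80, and the others had means between 5.37 and 6.62 at every stage. Of these others, Xl2.50568.1.A1_at was called lower at the first step, Xl2.51608.1.A1_at higher at the second and Xl2.52070.2.A1_at at neither.

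In the late neurula the values of both foxf1 copies were lower with NICD than with GFP, and without the block only foxf1.L was called. At stage 18, 2 members were called between NICD and GFP (1.61% of all probe sets), both lower (0.732% of all were lower), and with the replicate number as a block 13 were called (13.2% of all), 6 higher (6.16% of all) and 7 lower (7.08% of all). The members' share was thus close to that of all probe sets. This does not cover the 7 sox and fox probe sets left out by the definition of the members. Of those 7, without the block, 4 were called lower with NICD than with GFP at stage 18, and 3 higher and 1 lower at stage 28. Of the 13 calls with the block, 10, 5 and 4 were kept without the arrays numbered 1, 2 and 3. The values of foxf1.L were 7.24, 7.78 and 7.69 in GFP embryos, 6.68, 6.68 and 6.96 in NICD embryos and 7.24, 7.71 and 7.75 in DBM embryos. Every NICD array lay below every GFP and DBM array, and foxf1.L fell by 0.79 ± 0.15 against GFP (limma-adjusted p = 0.00705). The .S copy had 6.07, 6.50 and 6.32 with GFP and 5.85, 5.67 and 5.51 with NICD, groups that did not overlap. Its difference of −0.62 ± 0.25 passed only with the block (limma-adjusted p = 0.267 without and 0.00923 with it), and that call was lost without the arrays numbered 2 (adjusted p = 0.11) or 3 (adjusted p = 0.0736).

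The lower level of foxf1.L with NICD was seen at the later stages too. At stage 28 its values were 7.89, 7.91 and 8.01 with GFP, 7.52, 7.56 and 7.59 with NICD and 8.21, 7.99 and 8.21 with DBM. At stage 38 they were 8.22, 8.25 and 8.44 with GFP, 7.61, 7.74 and 7.90 with NICD and 8.36, 8.27 and 8.82 with DBM. NICD lay below both other groups without overlap at each stage. Against GFP the differences were −0.38 ± 0.15 and −0.55 ± 0.15, which passed only with the block (limma-adjusted p = 0.406 and 0.341 without, 0.0204 and 0.00438 with it). The stage 28 call was lost without any 1 replicate number of the stage (adjusted p 0.104 to 0.121). Among all members foxf1.L and sox9.S were below GFP in each of the 9 pairs of arrays with the same stage and number. This was 2.74% of the members, close to the 2.22% of all probe sets that held the pattern. For foxf1.S the stage 38 values were 7.43, 7.37 and 8.23 with GFP and 6.69, 7.05 and 7.41 with NICD, and these overlapped. NICD minus GFP was −0.63 ± 0.25 (limma-adjusted p = 1 without the block and 0.0427 with it), a call lost without any 1 replicate number of the stage, while that of foxf1.L was kept in 2 of those 3 cases.

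The neural crest and cartilage gene sox9.S was the other member called at stage 18. It read 10.36, 10.28 and 10.44 with GFP and 10.13, 10.11 and 10.10 with NICD, and it fell by 0.25 ± 0.06 (limma-adjusted p = 0.0421). The groups did not overlap, and the fall corresponds to 1.19-fold. The .L copy did not follow, at −0.04 for sox9.L, and at stage 38 the sox9.S difference was −0.17 ± 0.06 (limma-adjusted p = 0.854). The call of sox9.S at stage 18 was lost when any 1 of 5 of the 6 GFP and NICD arrays of that stage was left out (adjusted p 0.0549 to 0.235), all but GFP replicate 1. That of foxf1.L was lost without GFP replicate 2 (adjusted p = 0.066) or GFP replicate 3 (adjusted p = 0.0559).

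The blood vessel gene sox7.L had 7.13, 7.57 and 7.43 with GFP, 6.76, 6.69 and 6.49 with NICD and 6.87, 7.38 and 7.54 with DBM at stage 18. The NICD arrays were the lowest, with a difference from GFP of −0.73 ± 0.21 (limma-adjusted p = 0.0793 without the block and 0.00195 with it). With the block, the call of sox7.L held without any 1 replicate number of the stage, at adjusted p values up to 0.0363. At stage 28 it was −0.49 ± 0.21 and the GFP and NICD arrays overlapped. Of 10 probe sets for other vessel genes, such as flt1 and tek, receptors for vessel growth factors, none was called at stage 18 without the block and 3 were lower with it (etv2.L, fli1.S and 1 of tal1.S), beside a list mean of 7.23 to 7.47 on the GFP arrays and 7.13 to 7.16 on the NICD arrays. Among the endoderm genes that work with sox17 and FoxA, 3 of 17 probe sets fell without the block, all of gata6. With it 6 were lower, the others being gata4.L, gata5.L and gata5.S. No gene of the list outside gata4, gata5 and gata6 was called. The list mean was 7.01 to 7.13 with GFP and 6.74 to 6.89 with NICD. The sox17a and sox17b.1 probe sets differed by −0.06 to 0.02 and were called with neither fit. The FoxA median was 0.21, and with the block 2 of 7 FoxA probe sets were higher and 0 lower. The part of the vessel and endoderm lists in the foxf1 and sox7.L values was not tested.

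**Figure D2:**
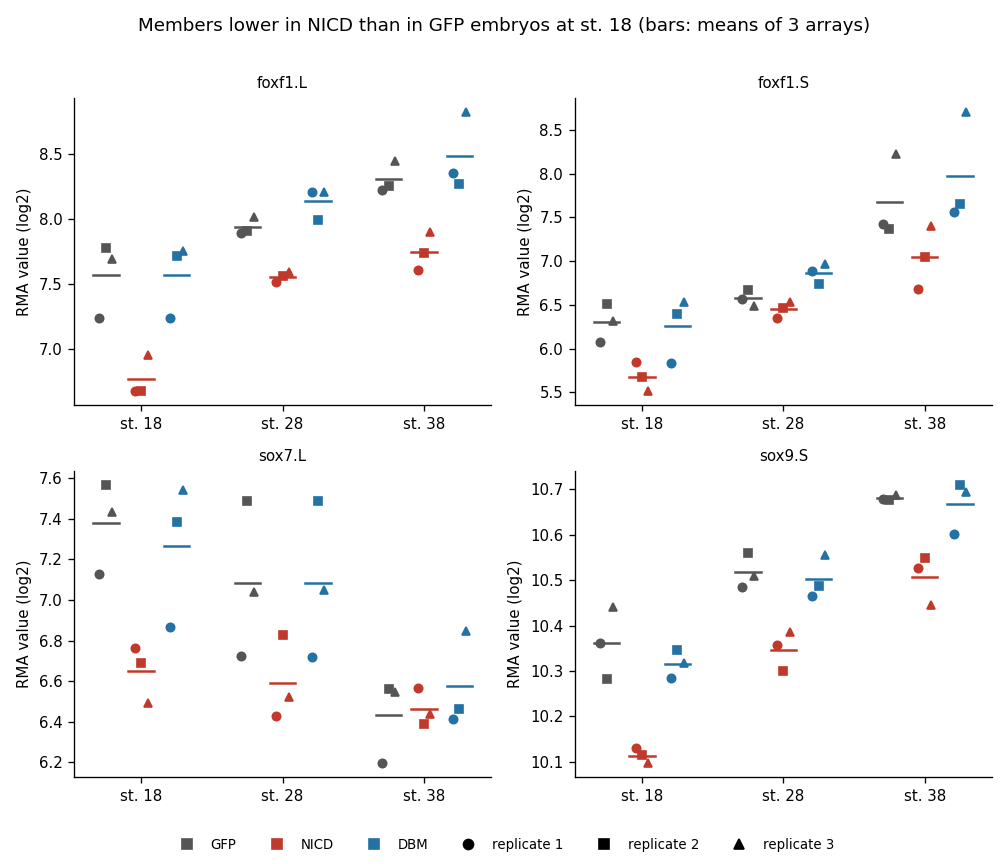
RMA value (y axis, log2) of foxf1.L, foxf1.S, sox7.L and sox9.S on each of the 27 arrays, by stage (x axis) and construct (colour), with symbols for replicate numbers and bars for means. NICD arrays of foxf1.L and sox9.S lie below all GFP arrays at each of the 3 stages, and those of sox7.L at stage 18.

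The remaining members of lowest p at stage 18 did not pass without the block. The SoxD gene sox13.S was 0.33 ± 0.10 higher with NICD on 1 probe set (limma-adjusted p = 0.108 without and 0.00455 with the block), and foxe3.L was lower (−0.44 ± 0.15, limma-adjusted p = 0.157 without and 0.0157 with it). Also called with the block were higher values of the second sox13.S probe set, of the cell division gene foxm1.S and of 1 probe set each of foxa1.L, foxa2.L and foxi4.2.L, and lower values of foxc2.L and of 1 of 4 foxi4.2.S probe sets. The foxi4.2.S probe sets disagreed, with differences between −0.41 and 0.42. No SoxB1, FoxB or FoxD probe set was called at this stage with either fit, although gmnn.L and gmnn.S, the only genes called without the block among 19 probe sets of neural progenitor partners of SoxB1, rose by 1.11 and 0.89. With the block 4 of the 19 were higher and 3 lower, the lower ones being pou3f4.L, pou3f4.S and msi1.S. No tissue marker was called between NICD and GFP at stage 18 without the block. With it 2 of 11 muscle, 1 of 6 nervous system and 1 of 3 lens probe sets were lower with NICD, and no other marker was called.

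In the tailbud the members called without the block lay above GFP. At stage 28, 3 members rose with NICD and none fell (0.65% of all probe sets called, 0.414% higher). With the block 21 were called (6.19% of all), 18 higher (3.01% of all) and 3 lower (3.18% of all). The median difference was 0.09 over the members and 0.01 over all probe sets. Leaving out the arrays numbered 1, 2 or 3 left 6, 4 or 13 of the 21 calls with the block. In each case foxb1.S and 2 sox8.L probe sets were called, and 7 of the 21 were called in none.

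The neural plate gene foxb1.S had 7.86, 7.82 and 8.04 with GFP, 8.41, 8.45 and 8.62 with NICD and 7.76, 7.87 and 7.79 with DBM. All NICD arrays were above all others, a rise of 0.58 ± 0.11, or 1.50-fold (limma-adjusted p = 0.0174). The same 3 groups read 9.35, 9.26 and 9.21, then 9.82, 9.36 and 9.35, then 9.18, 9.13 and 9.07 at stage 18. At stage 38 foxb1.S values lay between 6.86 and 7.24 in all 3 groups, which overlapped.

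The neural crest gene sox8.L rose on 2 of its 3 probe sets. On Xl2.53219.3.A1_at it read 6.63, 7.10 and 7.32 with GFP, 7.64, 7.98 and 7.79 with NICD and 6.68, 7.07 and 6.71 with DBM, a rise of 0.79 ± 0.17 (limma-adjusted p = 0.0302). On Xl2.29789.1.S1_at it read 5.52, 5.58 and 5.67 with GFP and 6.05, 6.36 and 6.18 with NICD, a rise of 0.61 ± 0.13 (limma-adjusted p = 0.0358). On the third probe set of sox8.L the difference was 0.59 ± 0.15 and passed only with the block (limma-adjusted p = 0.093 without and 0.011 with it). None of the 3 probe sets had overlapping NICD and GFP arrays at stage 28. Without the block, the calls of sox8.L and foxb1.S were all lost without GFP replicate 1, GFP replicate 2, NICD replicate 2 or NICD replicate 3 of the stage (adjusted p 0.0603 to 0.21).

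Among the SoxB1 progenitor genes, all 3 sox2.L probe sets and sox3.L were called higher at stage 28 with the block. These were 4 of 6 SoxB1 probe sets, and none was called without the block. Calls for sox3.S and sox1.S were made with neither fit. For sox2.L on Xl2.188.1.S1_a_at, GFP gave 9.95, 10.60 and 11.03 and NICD gave 11.05, 11.04 and 11.27, a difference of 0.59 ± 0.23 (limma-adjusted p = 0.353 without and 0.0215 with the block). The GFP arrays differed among themselves by more than this, with replicate 1 the lowest. The other sox2.L probe sets were higher by 0.35 and 0.38, and sox3.L by 0.42 ± 0.19 (limma-adjusted p = 0.506 without and 0.0312 with the block). With 1 replicate number of the stage left out, the blocked call on Xl2.188.1.S1_a_at was kept in 1 of 3 cases. For the other sox2.L probe sets, Xl2.188.1.S2_a_at and Xl2.188.1.S2_at, it was kept in 0 and 2, and for sox3.L in 1 (limma-adjusted p up to 0.287). Across all stages, 5 members were above GFP in each of the 9 pairs, where 1.61% of all probe sets were. They were 2 sox2.L probe sets, sox3.L, sox3.S and 1 foxa2.L probe set. The third SoxB1 gene, sox1.S, was not among them (−0.07 at stage 28). Of the 19 probe sets of SoxB1 partners, none was called at stage 28 without the block, and 4 were higher and 3 lower with it. Of 6 nervous system marker probe sets, none was called without the block and 1 was lower with it.

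Several forkhead genes of neural plate and mesoderm had higher values as well. The progenitor gene foxd4l1.1.S read 6.35, 5.93 and 6.37 with GFP, 6.75, 6.96 and 6.97 with NICD and 6.16, 6.28 and 6.27 with DBM. The groups were apart, by 0.67 ± 0.16 against GFP (limma-adjusted p = 0.0614 without and 0.00451 with the block). For foxc2.S, Xl2.508.1.S1_x_at read 8.62, 8.57 and 8.51 with GFP and 8.93, 8.95 and 8.88 with NICD, a difference of 0.35 ± 0.08 (limma-adjusted p = 0.0532 without and 0.00318 with the block). With the block, foxc2.L and the second foxc2.S probe set were called higher too (0.22 and 0.32), and foxd2.S, foxd1.L, foxa1.L, foxa2.L, sox15.L and sox13.S were called higher on 1 probe set each, by between 0.25 and 0.58. The calls of foxc2.L, the second foxc2.S probe set, foxd1.L and sox13.S were lost without any 1 replicate number of the stage (limma-adjusted p up to 0.285).

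The 3 members called lower with the block at stage 28 were foxf1.L, sox7.L and the lens gene foxe3.L. With 1 replicate number of the stage left out, the blocked call of sox7.L was kept in 0 of 3 cases (limma-adjusted p up to 0.3). The values of foxe3.L were 5.64, 5.66 and 5.37 with GFP, 5.24, 5.09 and 4.83 with NICD and 5.32, 5.56 and 5.15 with DBM. NICD lay below GFP without overlap (−0.51 ± 0.15, limma-adjusted p = 0.144 without and 0.0108 with the block). The lens markers were lower at this stage too. Here crybb1.L, crybb1.S and cryba1.L all fell, by 1.92, 1.19 and 1.18, and their mean was 7.25 to 7.39 on the GFP arrays and 5.56 to 6.24 on the NICD arrays. The blocked calls of foxe3.L at stages 18 and 28 were each kept in 1 of 3 cases with 1 replicate number of the stage left out. At stage 18, where foxe3.L was lower with the block, the lens median was 0.15, with 1 of 3 probe sets lower with the block. The lower one, crybb1.S, was at −0.47, and the highest of the 3 was at 0.32. The lens list mean on the GFP arrays of stage 18 was only 4.13 to 4.23, and whether this low level limited a fall was not tested. At stage 38 foxe3.L was at −0.05, and all 3 lens probe sets were lower with the block (median −0.78). The 3 liver probe sets were not called without the block and were lower with it, at a list mean of 7.36 to 8.01 with GFP and 6.25 to 7.18 with NICD. Of 4 blood probe sets 1 fell at this stage, and no muscle or epidermis probe set was called there with either fit. The part of any of these tissues in the member values was not tested.

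**Figure D3:**
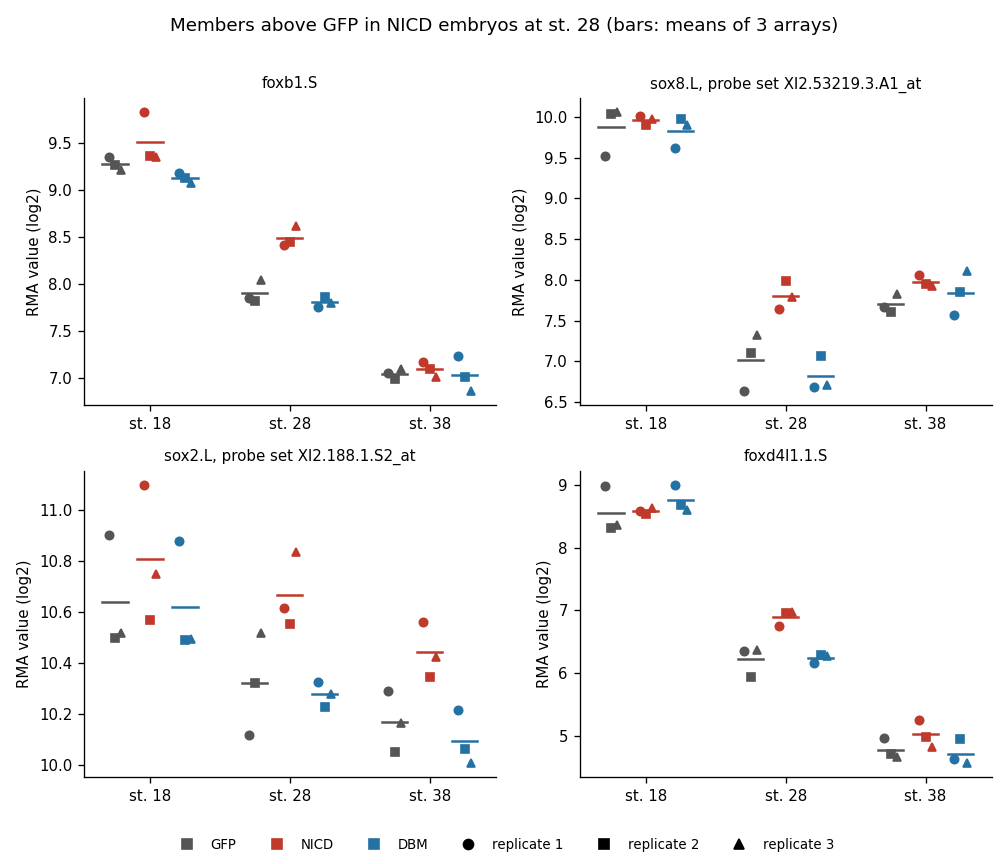
RMA value (y axis, log2) of foxb1.S, 1 probe set each of sox8.L and sox2.L, and foxd4l1.1.S on each of the 27 arrays, by stage (x axis) and construct (colour), with symbols for replicate numbers and bars for means. At stage 28 the NICD arrays of all 4 lie above all GFP and DBM arrays.

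At stage 38 no member was called between NICD and GFP (limma, 0.095% of all probe sets), with 8 members at an unadjusted p under 0.05 (3.3% of all). With the block 2 were called (1.21% of all), foxf1.L and foxf1.S, both described above. The thyroid and pharynx gene foxe1.L read 7.94, 7.89 and 8.10 with GFP and 8.57, 8.22 and 8.48 with NICD, higher by 0.44 ± 0.13 without overlap (limma-adjusted p = 0.496). The mesoderm gene foxc1.L was at −0.26 ± 0.11 (limma-adjusted p = 1). No tissue marker was called at this stage without the block. With it 3 of 3 lens and 1 of 4 blood probe sets were lower with NICD, and no other marker was called.

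**Figure D4:**
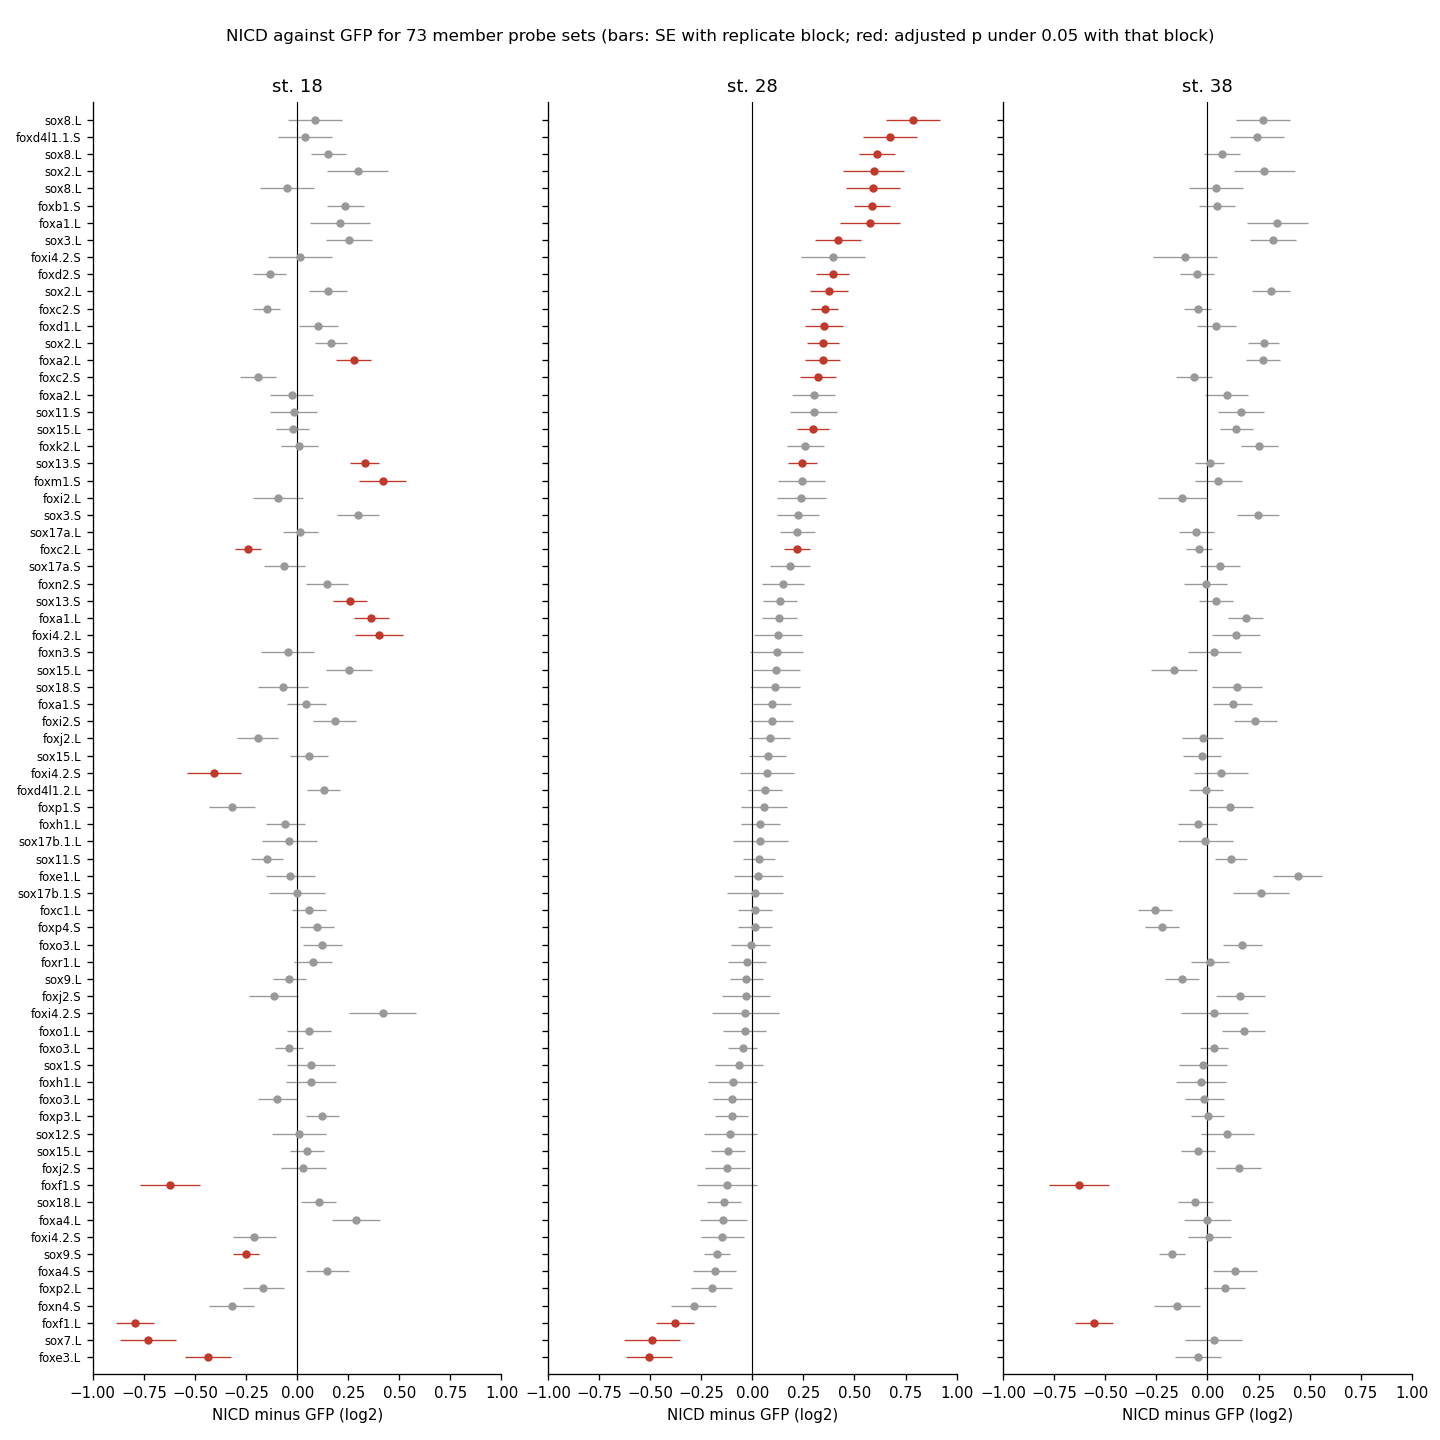
Difference of NICD from GFP (x axes, log2) for each of the 73 member probe sets (rows, ordered by the stage 28 difference) at stages 18, 28 and 38, with bars for the SE with the replicate block and red for members called with it. There are 13 red points at stage 18, 21 at stage 28, of which 18 lie to the right of 0, and 2 at stage 38.

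The NICD difference itself was compared between stages. Without the block no member was called for a change from stage 18 to 28 (0.0981% of all probe sets) or from stage 28 to 38 (0.00306% of all). With the block 5 were called between stages 18 and 28 (3.18% of all) and none between 28 and 38 (0.346% of all). The 3 foxc2 probe sets were among them. In the late neurula foxc2.L read 10.71, 10.56 and 10.63 with GFP and 10.59, 10.28 and 10.32 with NICD, and in the tailbud 9.81, 9.86 and 9.85 with GFP and 10.07, 10.11 and 10.01 with NICD. The sign of the foxc2.L difference turned in each of the 3 numbered pairs, from −0.24 to 0.22, a change of 0.46 ± 0.13 (limma-adjusted p = 0.269 without and 0.013 with the block). Both foxc2.S probe sets did the same, with changes of 0.50 ± 0.12 and 0.51 ± 0.13 (limma-adjusted p = 0.136 and 0.211 without, 0.009 and 0.0317 with the block). The remaining calls were foxd2.S (0.53) and 1 sox8.L probe set (0.70). Of the 5 calls, 3 were kept without the stage 18 arrays numbered 2 and none without those numbered 3, and 4 were kept, among 12 called, without those numbered 1. Without the stage 28 arrays numbered 1, 2 or 3, the calls kept numbered 1, 0 and 4.

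**Figure D5:**
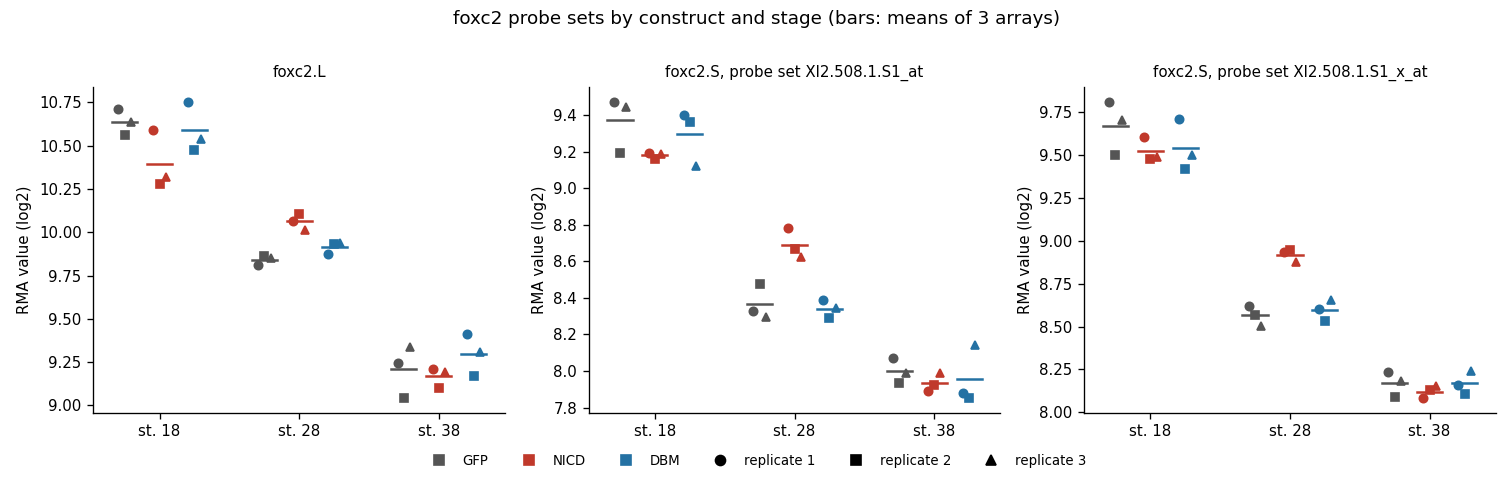
RMA value (y axis, log2) of the 3 foxc2 probe sets on each of the 27 arrays, by stage (x axis) and construct (colour), with symbols for replicate numbers and bars for means. Mean NICD values lie below mean GFP values at stage 18 and above them at stage 28.

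DBM was compared with the same GFP arrays as NICD, so these comparisons are not independent. No member was called with DBM in limma at stage 18 (0% of all probe sets), stage 28 (0.107%) or stage 38 (0.0123%), with 3, 9 and 3 members at an unadjusted p under 0.05 (4.73%, 6.78% and 1.95% of all). With the block none was called at stages 18 and 38 (0.236% and 0.11% of all) and 1 at stage 28 (1.94% of all). This was foxp2.L, a gene of the developing brain, at 5.63, 5.46 and 5.37 with GFP and 5.36, 4.95 and 4.96 with DBM. Its arrays did not overlap, by −0.40 ± 0.17 (limma-adjusted p = 0.629 without and 0.0486 with the block), and the call was lost without any 1 replicate number. The other members of lowest p had limma-adjusted p values of 0.457 or higher. At stage 18 these were foxi4.2.S (0.39), sox15.L (0.28), foxj2.L (−0.26), foxe3.L (−0.31) and foxr1.L (−0.21). At stage 28 they were foxj2.L (0.31), foxa1.L (0.46), foxp3.L (−0.25) and foxa2.L (0.25). At stage 38 they were foxn4.S (−0.39), foxo3.L (−0.30), foxo1.L (0.23), foxh1.L (−0.27) and foxi4.2.S (−0.28). For foxj2.L the change of the DBM difference from stage 18 to 28, 0.57 ± 0.16, was the only member called with the block (2.61% of all probe sets). None was called without it (0.0245% of all), or from stage 28 to 38 (0% of all without and 0.0214% with the block). Of 6 nervous system probe sets, 2 rose with DBM at stage 28.

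The NICD arrays compared with DBM are those also compared with GFP, so calls of a member in both comparisons are not independent. NICD and DBM arrays share no sample. Between them 5 members were called at stage 28 (1.73% of all probe sets), all higher with NICD, and 14 with the block (7.67% of all), 12 higher (2.63% of all) and 2 lower (5.04% of all). The 5 were foxb1.S (0.69 ± 0.11, limma-adjusted p = 0.001), foxd4l1.1.S (0.66 ± 0.16, limma-adjusted p = 0.0387) and all 3 sox8.L probe sets, with 0.99 ± 0.17 on Xl2.53219.3.A1_at, or 1.98-fold, as the largest of them (limma-adjusted p = 0.00179). The calls of foxb1.S and of Xl2.53219.3.A1_at held without any 1 array. That of foxd4l1.1.S was lost without any DBM array or without NICD replicate 2 or 3 of the stage (adjusted p 0.0864 to 0.168), that of sox8.L on Xl2.29789.1.S1_at without DBM replicate 1 or 3 or NICD replicate 2 or 3 (adjusted p 0.117 to 0.222), and that on Xl2.53219.3.A1_s_at without DBM replicate 3 (adjusted p = 0.0512). With the block, 2 sox2.L probe sets, sox3.L, sox3.S, both foxc2.S probe sets and sox13.S were added above DBM, and foxf1.L (−0.58 ± 0.15) and sox7.L below it. With 1 replicate number of the stage left out, the added calls of sox13.S, sox7.L and 1 foxc2.S probe set were kept in 0 of 3 cases. Those of sox3.L, sox3.S and 1 sox2.L probe set were kept in 1 (limma-adjusted p up to 0.401). Those of the other sox2.L and foxc2.S probe sets were kept in 2. Tissue markers moved between these groups as well. The neuronal genes nefm.L and nefm.S were lower with NICD than with DBM (−1.43 and −1.59), 2 of 6 nervous system probe sets. With the block 3 of 6 were lower, the other being tubb2b.S (−0.52), and 1 of 3 epidermis probe sets was higher. No probe set of the vessel and endoderm lists was called without the block, and 3 of 10 and 7 of 17 were lower with it. Of the lens markers 1 of 3 was lower without the block and 3 with it (median −0.97), and 2 of 3 liver probe sets (median −1.21) and 1 of 4 blood probe sets (−2.13) were lower. The list means on the DBM and NICD arrays were 8.91 to 9.06 and 8.37 to 8.57 for nervous system, 6.72 to 7.18 and 5.56 to 6.24 for lens, and 7.41 to 8.17 and 6.25 to 7.18 for liver. Their part in the member values was not tested.

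At stage 18 the only member called between NICD and DBM was foxf1.L (0.812% of all probe sets), lower by 0.79 on the log2 scale (limma-adjusted p = 0.00975), and with the block 4 were called (6.08% of all), foxf1.L, foxf1.S and sox7.L below DBM and foxb1.S above it. With 1 replicate number of the stage left out, the blocked calls of foxf1.S and sox7.L were kept in 1 of 3 cases and that of foxb1.S in 2. At stage 38 foxf1.L again was the only one (0.628% of all), at −0.73 ± 0.15 (limma-adjusted p = 0.0228), and 9 were called with the block (3.26% of all). These were foxf1.L, foxf1.S (−0.93 ± 0.25) and foxc1.L below DBM, and 2 sox2.L probe sets, sox3.L, sox3.S, foxe1.L and foxi2.S above it. With 1 replicate number of the stage left out, the blocked calls of both sox2.L probe sets were kept in 0 of 3 cases. Those of sox3.L, sox3.S, foxe1.L, foxi2.S and foxc1.L were kept in 1, and that of foxf1.S in 3. With the block the call of foxf1.L held without any 1 replicate number at every stage, at adjusted p values up to 0.0172. Without it, the stage 18 call was lost without DBM replicate 2 or 3 or NICD replicate 2 (adjusted p = 0.0619, 0.074 and 0.0543), and the stage 38 call without NICD replicate 1 or 2 or DBM replicate 3 (adjusted p = 0.187, 0.0866 and 0.182). Of the tissue markers at stage 38, 2 of 6 nervous system and 1 of 4 blood probe sets were lower with NICD than with DBM in each fit. Only with the block were 3 of 3 lens probe sets lower and 2 of 3 epidermis probe sets higher. The part of these tissues in the member values was not tested.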

How the data were processed

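The authors hybridised labelled RNA of pooled embryos to 27 Affymetrix Xenopus laevis 2.0 arrays. They deposited log2 values, normalized and summarised by RMA in Bioconductor. These values were used as given. A second deposited table was not used: it holds 27 columns of array values and 6 columns of the authors' adjusted p-values for their comparisons. Probe-level signals were not analysed here, and the number of arrays limits the precision.

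Probe sets were named through the platform annotation (15505 have 1 gene symbol), and all 73 members matched RefSeq by Entrez ID. One linear model with a mean for each of the 9 groups was fitted to all 32635 probe sets with limma 3.58.1 in R 4.3.3 (18 residual degrees of freedom), with Benjamini-Hochberg adjustment within each of 11 comparisons and 4 differences between stages, and a threshold of 0.05. SE values are from this fit. Named are all members called and, where fewer than 5 were, those of lowest p up to 5, and between stages the 5 largest rises and falls. Members called only with the block, foxf1.S, sox1.S and the foxc2 probe sets were named after their values were seen. The members and lists were chosen with earlier results of these data known.

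The titles number the arrays of each group. Deviations from the group means correlated between arrays of the same stage and number at 0.454 to 0.811 (stage 18), 0.492 to 0.724 (stage 28) and 0.68 to 0.774 (stage 38). For different numbers the range was −0.689 to 0.573, −0.433 to −0.191 and −0.423 to −0.288. The numbers were therefore taken to pair the arrays, from the values and not from a stated clutch or day. At stage 18 the ranges for same and different numbers overlapped, so the pairing is less clear there. Blocked values come from a fit with a separate number effect within each stage. Alternatives were a block across stages, only the arrays of the comparison, repeated quantile normalization, array weights, Benjamini-Yekutieli adjustment, omission of dim probe sets and omission of single arrays. The fit was tested on simulated data. Figures were drawn with matplotlib.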

Additional observations from a re-analysis of the deposited data

How the results depend on the processing

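The number of members called depended on the fit, and no named difference changed sign. The blocks, the use of only the arrays of a comparison, the Benjamini-Yekutieli adjustment and the omission of dim probe sets cannot change a difference. Only array weights, repeated quantile normalization and the omission of arrays could have changed a sign. With 1 replicate block across all stages, 5 members were called for NICD against GFP at stage 28 and 3 for NICD against DBM at stage 38. With the replicate block within each stage, 13, 21 and 2 members were called for NICD against GFP at stages 18, 28 and 38, 1 for DBM against GFP at stage 28, and 4, 14 and 9 for NICD against DBM. That block also called 5 members for the change of the NICD difference and 1 for that of the DBM difference from stage 18 to 28. With only the arrays of a comparison, the count was 0 for NICD against GFP at stages 18 and 28 and for NICD against DBM at stages 18 and 38. With array weights it was 11 and 6 for NICD against GFP at stages 18 and 28, 1 for DBM against GFP at stage 18, and 4 and 9 for NICD against DBM at stages 18 and 28. With Benjamini-Yekutieli adjustment it was 0 for NICD against GFP at stages 18 and 28 and for NICD against DBM at stages 18 and 38, and 2 for NICD against DBM at stage 28. For the block within each stage, the shares of all probe sets are given above. For the other settings they are not given, so a move of the members cannot be told from a move of all probe sets. The cause of these moves was not tested.

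With single arrays left out, the count ranged from 0 to 5 for NICD against GFP at stages 18 and 28. It was highest without GFP replicate 1 at stage 18 and without GFP replicate 3 at stage 28. For NICD against DBM it lay between 0 and 2 in the neurula and in the tadpole, and between 2 and 5 in the tailbud. It was 47 to 49 and 37 to 39 for the stage steps of GFP embryos, and 0 throughout for DBM, for NICD at stage 38 and for the 4 differences between stages. With the block kept and 1 replicate number of a stage left out, alternatives chosen after seeing the data, the counts ranged from 4 to 13, 4 to 13 and 0 to 1 for NICD against GFP at stages 18, 28 and 38. They were 2 to 6, 6 to 9 and 3 to 5 for NICD against DBM, 0 to 1 for DBM against GFP at stages 18 and 28, 0 at stage 38, and 0 to 12 for the change of the NICD difference. These counts too are given without the share of all probe sets. Low signals limit what can be read from several members, among them sox12, foxp3 and foxr1. This holds also for foxe3.L, foxi4.2.L and foxo1.L, with means over all arrays of 5.04, 4.62 and 4.43. Of these, foxe3.L and foxi4.2.L carried calls with the block.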
